A study of Mus musculus with 8 samples.

Results

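The genes described here are 10 TRAF genes, inhibitor of apoptosis (IAP) genes and adaptor genes of tumour necrosis factor (TNF) receptors. These 10 are the TRAF genes Traf1, Traf2, Traf3, Traf5 and Traf6, the IAP genes Birc2, Birc3 and Xiap, and the adaptor genes Ripk1 and Tradd. They were listed by name, out of 21521 protein-coding genes, and RelA peaks were assigned to a gene when the peak centre lay inside it or within 50 kb of either end. All 10 were found in the gene table. Of 9829 peaks in the whole series, 14 met this rule for at least 1 of the 10 genes.

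The peaks come from chromatin immunoprecipitation and sequencing (ChIP-seq) of RelA, also called p65, the NF-kB subunit with a strong activation domain. The cells were fibroblasts cultured directly from C57BL/6 mouse embryos of wild-type genotype, starved of serum overnight and then given TNF, a cytokine of inflammation. ChIP libraries at 0 h, at 0.5 h and 3 h of TNF at 10 ng/ml numbered 2 at each time, beside 2 libraries of input DNA. A single list of peak positions on the mm10 genome stood for all of them, with no height, score or sample, so no time could be compared, no spread between replicates could be calculated and library depth was unknown. The list holds no expression values, so the fibroblast label could not be checked against marker genes.

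TNF receptor 1 has no enzyme activity of its own and works through the proteins that gather on its tail. TRADD binds the receptor and brings in RIPK1 and TRAF2, and TRAF2 brings in the ubiquitin ligases cIAP1 and cIAP2, which Birc2 and Birc3 encode. The ubiquitin chains built there recruit the kinases that free NF-kB, and without them RIPK1 can instead start cell death. TRAF3 works with TRAF2 and the cIAPs to keep the kinase NIK low, which holds back the non-canonical NF-kB pathway, while TRAF6 serves interleukin-1 and Toll-like receptors. Birc3 and Traf1 are textbook NF-kB target genes, so that the pathway feeds back on its own adaptors.

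Reference promoter sequence shows where RelA peaks met the start sites. A promoter here is 250 bases before to 50 bases after an annotated start site, 300 bases in all, from NCBI RefSeq on GRCm38.p6, the assembly named mm10. The table held 13 such windows for 9 of the 10 genes. Tradd was not matched. Peaks overlapped the windows of Birc3 and Traf6 alone among these 9 genes, 2 of 9 against 5.59% of all protein-coding genes with a window. The windows that follow are printed 5′ to 3′ on the strand of the gene: those of Birc3 and Traf6, that of Traf3, which matched the stricter kappaB letters given further on but held no peak, and one from Xiap, the gene with no peak nearby. Capitals mark the letters GGG, then any 5 bases, then CC, on either strand, a loose form of the kappaB site that NF-kB binds.
Birc3, chr9:7873121-7873420, minus strand: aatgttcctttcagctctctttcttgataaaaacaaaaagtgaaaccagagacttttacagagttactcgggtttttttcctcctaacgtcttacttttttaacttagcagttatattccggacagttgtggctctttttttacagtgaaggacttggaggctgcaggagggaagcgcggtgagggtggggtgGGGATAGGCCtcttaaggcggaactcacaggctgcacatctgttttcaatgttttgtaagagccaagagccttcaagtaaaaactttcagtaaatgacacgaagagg
Traf6, chr2:101678170-101678469, plus strand: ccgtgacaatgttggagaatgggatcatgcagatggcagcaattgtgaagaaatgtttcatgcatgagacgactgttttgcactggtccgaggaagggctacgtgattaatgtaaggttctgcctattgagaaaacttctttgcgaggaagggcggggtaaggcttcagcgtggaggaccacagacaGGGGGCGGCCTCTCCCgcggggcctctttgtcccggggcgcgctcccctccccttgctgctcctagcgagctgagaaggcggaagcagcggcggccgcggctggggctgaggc
Traf3, chr12:111166120-111166419, plus strand: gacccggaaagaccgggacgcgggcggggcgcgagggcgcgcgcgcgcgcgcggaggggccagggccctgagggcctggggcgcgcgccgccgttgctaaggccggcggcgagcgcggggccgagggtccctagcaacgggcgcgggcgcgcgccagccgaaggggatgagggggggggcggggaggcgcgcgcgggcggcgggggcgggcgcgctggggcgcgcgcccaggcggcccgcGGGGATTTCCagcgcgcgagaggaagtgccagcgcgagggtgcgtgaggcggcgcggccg
Xiap, chrX:42068148-42068447, plus strand: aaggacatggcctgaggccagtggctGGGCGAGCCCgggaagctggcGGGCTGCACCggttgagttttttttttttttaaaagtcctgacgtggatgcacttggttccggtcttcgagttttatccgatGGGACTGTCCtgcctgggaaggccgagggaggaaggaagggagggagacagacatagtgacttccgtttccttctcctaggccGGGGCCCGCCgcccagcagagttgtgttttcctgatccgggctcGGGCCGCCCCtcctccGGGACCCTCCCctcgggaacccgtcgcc

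The Birc3 peak covered all 300 bases of its window and the Traf6 peak covered the last 119, and both held the start site. The Birc3 window was the less rich in G and C, at 43.0%, against 59.3% for Traf6. Each carried the loose letters ahead of the start site, as GGGATAGGCC beginning 57 bases before it in Birc3 and GGGGGCGGCC beginning 63 bases before it in Traf6. In Traf6 a match on the other strand overlaps the first, and the 2 appear above as a single run of capitals. These letters are common: 51.1% of all 32619 promoter windows on chromosomes 1 to 19 and X held them.

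A stricter form, GGG, any 3 bases and TTCC, which is contained in the loose one, stood in 5.6% of all windows and in those of 3 of the 9 genes. Traf3 had it as GGGGATTTCC, beginning 10 bases before the start site and read on the other strand as GGAAATCCC, a match to GGAANTCCC, which 1.7% of windows held. Traf2 had it as GGGTGTTTCC, beginning at base 32 counted from the start site as base 1, and Traf5 as GGGTGATTCC, beginning 207 bases before it. None of these 3 windows overlapped a peak, and the nearest peak centres lay 6.28, 2.49 and 20.0 kb from the 3 start sites. Of the 3 Xiap windows, the printed one alone held the loose letters, at 7 positions. No peak lay within 50 kb of the gene. The printed Xiap window was 61.7% G and C and that of Traf3 was 84.0%. Neither GGAANTTCC (0.9% of all windows) nor the AP-1 letters TGANTCA (7.8%) occurred in any of the 13 windows, each searched on both strands. Over all genes, 77.2% of the 1353 windows under a peak held the loose letters, against 49.9% of the rest. For the form ending in TTCC the shares were 16.2% and 5.1%, for GGAANTCCC 8.1% and 1.4%, and for GGAANTTCC 3.8% and 0.8%. The AP-1 letters went the other way, with 6.5% of the windows under a peak and 7.9% of the rest. The difference in G and C between these windows was not taken into account. A match is a match of letters, and its absence says nothing beyond these 300 bases.

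Of the 10 genes, 9 had a peak inside or within 50 kb (90.0%), against 43.2% of all protein-coding genes. They had a median of 1.5 peaks per gene, and the median of all protein-coding genes was 0 (means, 1.7 and 0.75). The genes were between 6.02 and 100.8 kb long, and among the protein-coding genes in that range 44.9% had a peak by the same rule. Peaks inside the gene were present in 6 of 10 genes, against 14.6% of all protein-coding genes and 13.0% of those in the same range of length. Within 10 kb, 7 of 10 genes had a peak, against 23.1%. The searched sequence came to 1.31 Mb and held 10.7 peaks per Mb, while that around all protein-coding genes held 4.58 per Mb. Birc2 and Birc3 are neighbours 10.3 kb apart and have all 3 of their peaks in common. Counted as a single locus, they leave 8 of 9 loci with a peak. These are descriptions of 1 list of peaks, and since the genes were chosen with results of these data known, no test was made on them.

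**Figure D1:**
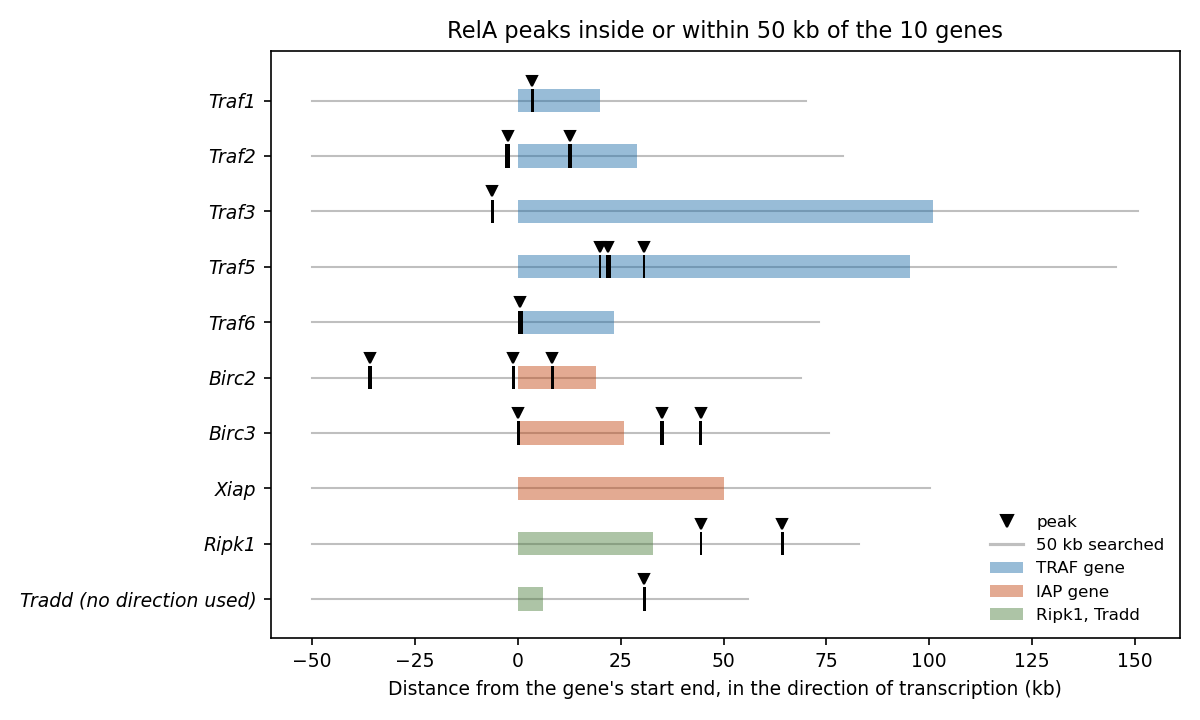
Each row is 1 gene, drawn to scale from its start end in the direction of transcription (kb), with the gene as a coloured bar, the searched 50 kb as grey lines and each RelA peak as a black block under a triangle; Tradd is drawn from its lower coordinate. A peak sits at or close to the start end of Traf1, Traf2, Traf3, Traf6, Birc2 and Birc3. Traf2, Birc2 and Birc3 also have peaks farther from that end. The peaks of Traf5 lie deeper inside the gene, those of Ripk1 beyond its end and that of Tradd outside the gene, and Xiap has none.

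The TRAF genes had peaks in every case, 5 of 5, with 8 distinct peaks. Traf6, the ubiquitin ligase of interleukin-1 and Toll-like receptor signalling (chromosome 2, 101678420 to 101701668), had 1 peak, from 101678351 to 101679651. It was 1301 bp wide, the widest around the 10 genes, and 1.4% of all peaks were as wide or wider. Its centre lay 0.581 kb into the gene, so the peak extended mostly to the transcribed side of the start site printed above. Traf2, which links the receptor complex to the cIAPs (chromosome 2, 25517982 to 25546940), had 2 peaks. The peak from 25548818 to 25550039 was 1222 bp wide and centred 2.49 kb before the start site. The other, from 25533723 to 25534838 and 1116 bp wide, was centred 12.7 kb inside, at 43.7% of the gene's length. Both were among the broad peaks of the series, with 2.4% and 4.5% of all peaks as wide or wider.

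Traf1 encodes the TRAF protein without a RING domain, which forms complexes with TRAF2 (chromosome 2, 34941750 to 34961812). Its 1 peak spanned 34957908 to 34958711, was 804 bp wide and lay 3.46 kb past the start site, at 17.5% of the gene's length. The start site of Traf1 itself was therefore not under a peak. Traf3, the negative regulator of NIK (chromosome 12, 111166321 to 111267155), is the longest of the 10 genes and had 1 peak outside it, from 111159741 to 111160435. This 695 bp peak was close to the median width of all peaks, 687 bp, and was centred 6.28 kb before the start site. Traf3 was the TRAF gene of these 5 with no peak inside.

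Traf5, a close relative of Traf2 (chromosome 1, 191997203 to 192092599), had 3 peaks, all inside the gene. They spanned 192061586 to 192062096, 192070087 to 192071177 and 192072287 to 192072891 and were 511, 1091 and 605 bp wide. Their centres lay 30.8, 22.0 and 20.0 kb past the start site, at 32.2%, 23.0% and 21.0% of the gene's length. The broad middle peak was separated by 1109 bp from the narrow one nearest to the start, and by 7990 bp from the third. No peak centre lay within 10 kb of the start or the far end of Traf5, so a search of gene ends alone would have passed over it. The gene table carries no exons, so whether these peaks lie in introns was not analysed here.

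Among the IAP genes, 2 of 3 had peaks. Birc3, which encodes cIAP2 (chromosome 9, 7847468 to 7873205), had a 763 bp peak from 7872686 to 7873448, centred 0.103 kb past its start site. That centre lay 0.138 kb from the nearer gene end, and 1.8% of all protein-coding genes had one as near or nearer to an end. Birc2, which encodes cIAP1 (chromosome 9, 7818226 to 7837131), had an 845 bp peak from 7837785 to 7838629, centred 1.15 kb before the nearest of its start sites, and a 706 bp peak from 7828466 to 7829171, 7.99 kb past the nearest. Neither overlapped the promoter windows of Birc2. Both genes are transcribed in the same direction, with Birc3 upstream, so the interval between them follows the far end of Birc3. The peak just upstream of Birc2 lies in that interval, 9.26 kb from the far end of Birc3. The peak inside Birc2 lay 18.6 kb from Birc3, and that at the start of Birc3 lay 35.9 kb from Birc2. Each of the 2 genes thus reached 3 peaks, and these are the same 3 peaks counted for both. That number was met by 3 of the 10 genes (with Traf5) and by 7.36% of all protein-coding genes.

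Xiap encodes an IAP that binds and inhibits caspases directly (chromosome X, 42059613 to 42109664). It was the gene of the 10 with no peak. The nearest peak centre was 289 kb away, and 81.4% of all protein-coding genes had one as near or nearer to an end. Chromosome X carried 135 of the 9823 peaks on placed chromosomes. On that chromosome 14.8% of 963 protein-coding genes had a peak inside or within 50 kb, so the lack of one was the common state there.

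Both adaptor genes had peaks within 50 kb, but none within 10 kb and none inside. Ripk1, the kinase that is ubiquitinated at the receptor (chromosome 13, 34002225 to 34035170), had 2 peaks, both beyond its far end. They spanned 34046460 to 34046922 and 34066123 to 34066858, were 463 and 736 bp wide and lay 11.5 and 31.3 kb from the gene. The nearer of them was narrow, with 96.2% of all peaks as wide or wider. Tradd, the adaptor that first docks on the receptor (chromosome 8, 105258575 to 105264594), had 1 peak of 856 bp from 105288889 to 105289744, 24.7 kb from the gene. The shortest gene of the 10, it had the shortest sequence searched, 106.0 kb.

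**Figure D2:**
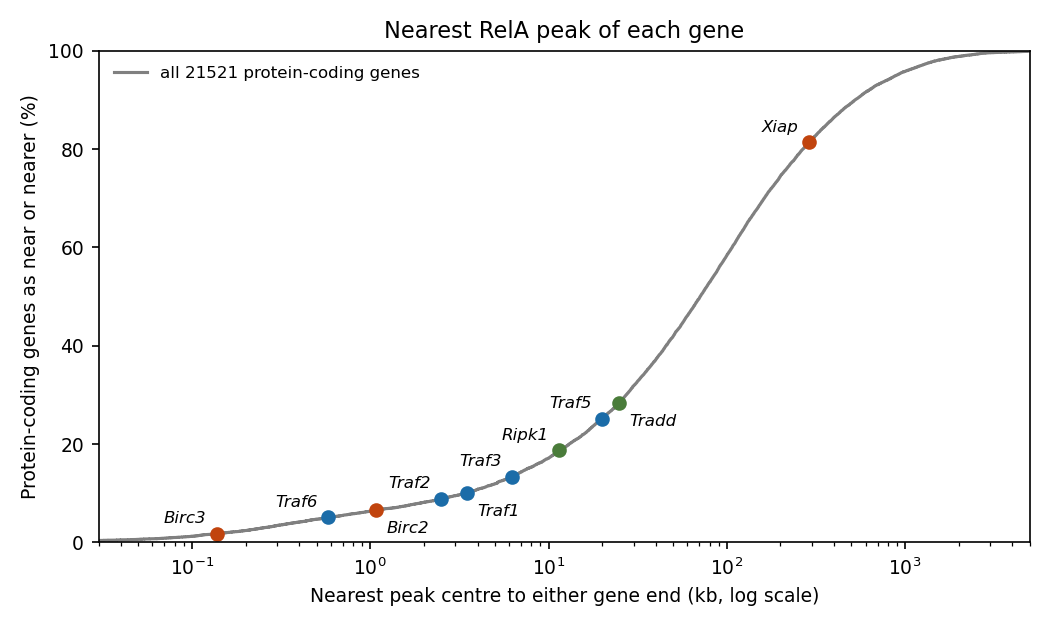
Distance from each gene's nearest RelA peak centre to the nearer gene end (kb, log scale) against the percentage of protein-coding genes as near or nearer; the grey line is all 21521 genes and the coloured points are the 10 genes (blue TRAF, orange IAP, green Ripk1 and Tradd). Birc3 at 0.138 kb stands lowest, 8 further genes lie up to Tradd at 24.7 kb, and Xiap stands apart at 289 kb.

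Ordered by distance from the nearer gene end, the genes ran from Birc3 (0.138 kb) through Traf6 (0.581 kb), Birc2 (1.08 kb), Traf2 (2.49 kb), Traf1 (3.50 kb), Traf3 (6.23 kb), Ripk1 (11.5 kb), Traf5 (20.0 kb) and Tradd (24.7 kb) to Xiap (289 kb). The median was 4.87 kb, and that of all protein-coding genes 70.8 kb. Distances say where a peak is, not how strongly RelA was bound there. Measured from the start site instead, 6 of the 9 genes with a promoter window had a peak centre within 10 kb, against 13.2% of protein-coding genes with a window. These were Traf1, Traf2, Traf3, Traf6, Birc2 and Birc3.

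The rule's limit of 50 kb did not divide neighbouring values. The farthest peak that it kept was that of Birc3 seen from Birc2, at 35.9 kb. The closest peaks that it left out lay 73.8 kb from Traf5, 78.1 kb from Ripk1, 83.7 kb from Birc2, 91.0 kb from Traf2 and 95.5 kb from Traf6.

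**Figure D3:**
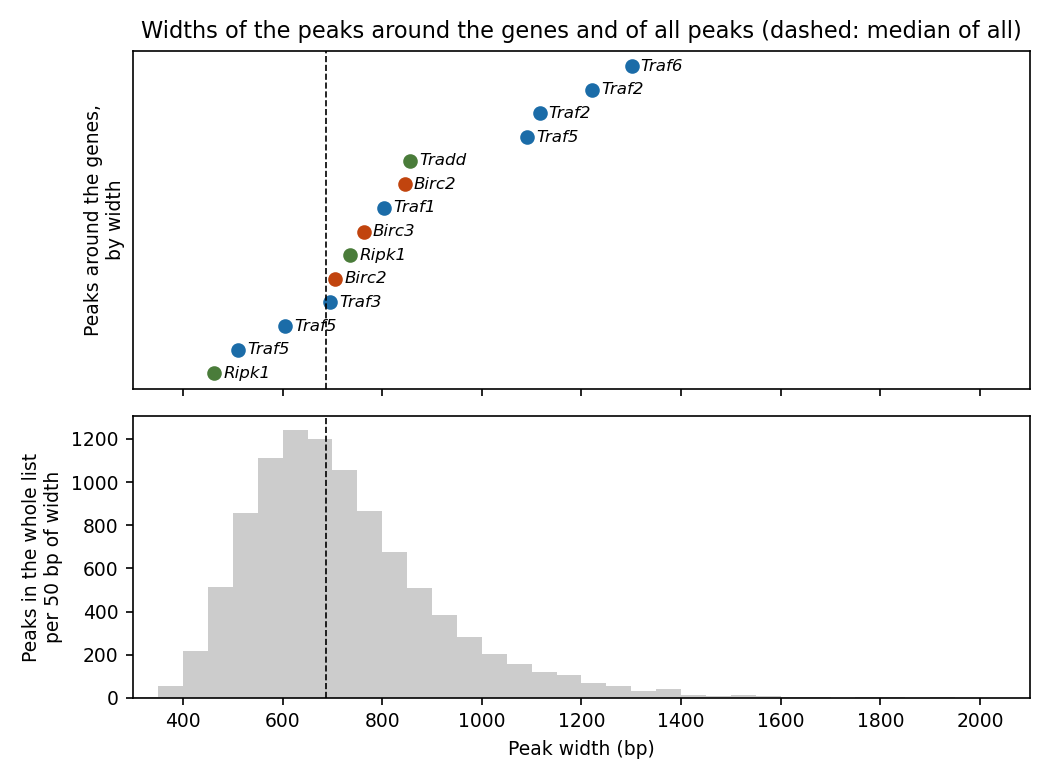
Top, the width (bp) of each of the 14 peaks around the genes, labelled with the nearest of the 10 genes and coloured blue for TRAF, orange for IAP and green for Ripk1 and Tradd; bottom, the number of peaks of the whole list on chromosomes 1 to 19 and X per 50 bp of width, with the median of all peaks (687 bp) dashed. The peaks of 1000 bp or more, 4 of 14, belong to Traf2, Traf5 and Traf6.

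In width the 14 peaks ranged from 463 to 1301 bp, with a median of 783.5 bp against 687 bp for all peaks. Of them, 11 were wider than that median and 3 were narrower. Peaks of 1000 bp or more made up 4 of the 14 and 8.7% of all peaks. All 4 lay in or beside TRAF genes, both peaks of Traf2 with the middle one of Traf5 and that of Traf6. The 3 IAP peaks, all at the neighbours Birc2 and Birc3, were 706 to 845 bp wide. The Traf1 peak, at 804 bp, fell in the same range. No peak height was at hand, so width could not be related to the strength of binding.

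All 14 peaks also lay within 50 kb of at least 1 other protein-coding gene, between 1 and 12 of them. Here the 10 genes counted as neighbours of each other, and for the peak at the start of Birc3 the only other gene was Birc2. Of all 7596 peaks with a protein-coding gene in that window, 48.8% had another. At 10 kb, 2 of 11 peaks around the 10 genes (18.2%) had another coding gene in the window, against 16.4% of all peaks with one. These 2 were the Traf2 peak near Edf1 and the peak upstream of Birc2, 9.26 kb from Birc3. For 11 of the 14, no other protein-coding gene was nearer than 1 of the 10 genes. By gene, Traf1, Traf2, Traf3, Traf5, Traf6, Birc2 and Birc3 were the nearest to at least 1 peak, 7 of 10 against 22.1% of all protein-coding genes. Traf5 and Traf3 stood nearly alone, with Rcor3 and Rcor1, genes for corepressor proteins, as the single other coding gene within 50 kb. At Traf1 the next gene was Hc, for complement component C5, 25.0 kb from the peak. At Traf6 it was the recombinase gene Rag1, 29.5 kb away. Traf2 lies among many genes: its peaks had 7 and 8 others within 50 kb, and the peak before its start was 8.40 kb from Edf1.

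For Ripk1 and Tradd the peaks were nearer to other genes. Both Ripk1 peaks were centred inside Bphl, a hydrolase gene, and the farther of them was also 7.79 kb from Tubb2a, a beta-tubulin gene. The Tradd peak was centred inside 4931428F04Rik and lay 0.607 kb from Exoc3l. It was nearer to 8 coding genes than to Tradd, among which were Nol3, which encodes an inhibitor of cell death (7.38 kb), the cell cycle factor gene E2f4 (8.35 kb) and the heat shock factor gene Hsf4 (13.5 kb). The other 3 were Elmo3 (16.1 kb), Fbxl8 (20.0 kb) and Lrrc29 (23.0 kb). Which gene a peak acts on, if any, was not measured.

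**Figure D4:**
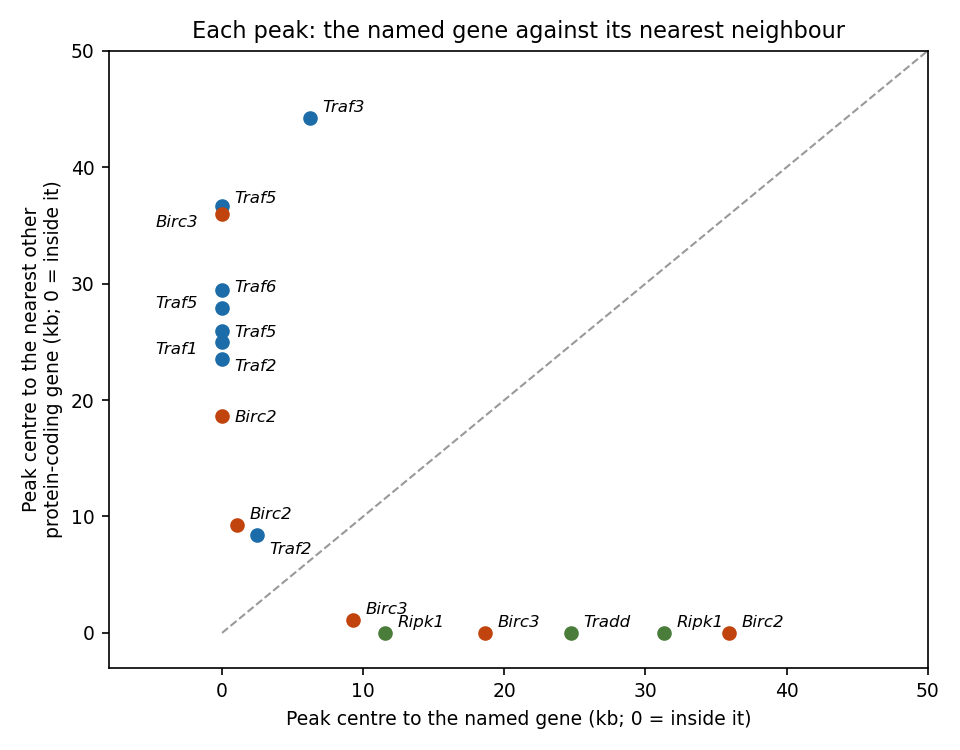
For each pair of a gene and a peak, the distance of the peak centre to that gene (kb) against its distance to the nearest other protein-coding gene (kb), where 0 is inside; colours are blue for TRAF, orange for IAP and green for Ripk1 and Tradd, and the dashed line marks equal distances. Points above the line are peaks nearer to the named gene; all points of Ripk1 and Tradd lie below it, as do the Birc2 and Birc3 points for the peaks that are closer to the other of these neighbours.

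Other genes of the pathway, 48 in 5 lists, were set beside these 10. The lists were written from general knowledge with earlier results of these data known, and for each the same background applied, 43.2% of protein-coding genes within 50 kb and 23.1% within 10 kb. Of the TNF receptor genes, 2 of 8 had a peak within 50 kb. These were Tnfrsf1b, the gene of TNF receptor 2, with 4 peaks, the closest 7.79 kb away, and Tnfrsf11a, the receptor gene of RANKL, with 2. Tnfrsf13c, the next closest, was at 74.2 kb. Named after its value was seen, Tnfrsf1a, the gene of the receptor on which Tradd and Ripk1 products assemble, had its nearest peak 114 kb away. The same 2 of 8 genes had a peak inside or within 10 kb, so the receptor genes were below the background at 50 kb and near it at 10 kb.

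The remaining TRAF and BIR family genes had peaks in 7 of 14 cases, near the background. Birc5, which encodes survivin, had 4 peaks, the closest 0.206 kb from its end. Traf4 had 3, at least 1 of them inside the gene. Trafd1 had 2, at least 1 of them inside the gene, with the closest 4.75 kb from its end. Genes of the linear ubiquitin machinery and its deubiquitinases had peaks in 5 of 7 cases. Tnfaip3, which encodes A20, had 5 peaks and Cyld had 2, and the linear ubiquitin ligase gene Rnf31 had 1, at 0.444 kb. Kinase genes and their adaptors had peaks in 8 of 12 cases. The same 8 of 12 had a peak inside the gene, against 14.6% of all protein-coding genes. Tank, which encodes a TRAF-binding adaptor, had 4 peaks, with one 0.073 kb from its end, Map3k14, which encodes NIK, had 5, and Map3k7, which encodes TAK1, had 2.

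In the death branch, 5 of 7 genes had a peak. Fadd, the adaptor that joins RIPK1 and TRADD to caspase-8, had 3 peaks, one of them 0.033 kb from its end. Htra2, a mitochondrial protease gene, had 2, and Cflar, which encodes the caspase-8 inhibitor c-FLIP, had 2, both inside the gene. Casp8 fell just outside the limit at 50.3 kb, named after its value was seen. Over the 5 lists, 27 of 48 genes had a peak within 50 kb and 22 within 10 kb, with a median of 1 peak per gene.

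**Figure D5:**
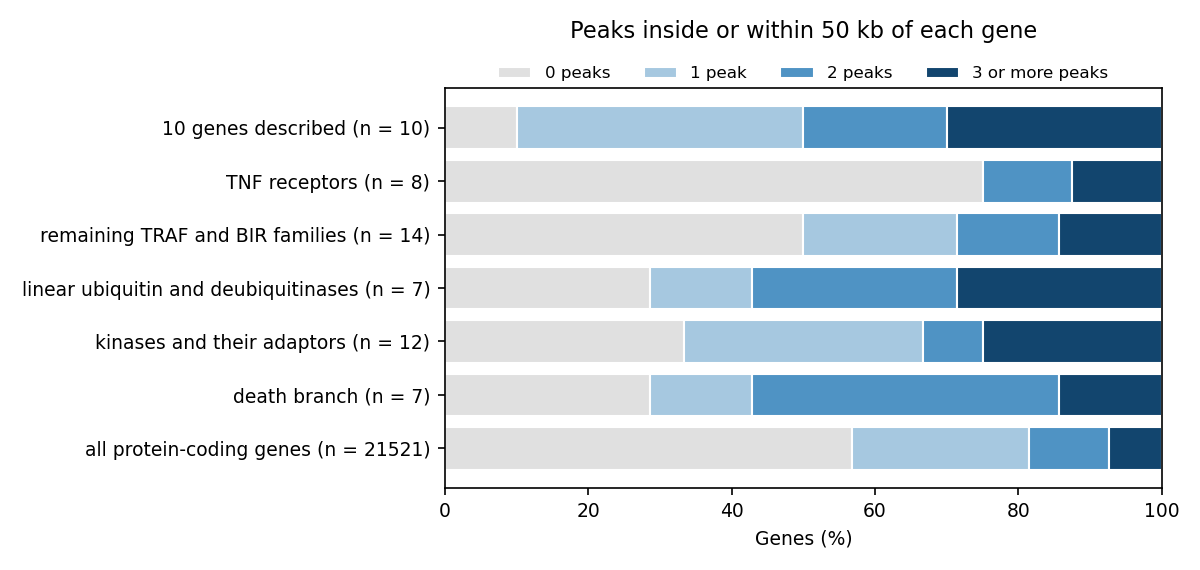
Share of genes (%) with 0, 1, 2 or at least 3 RelA peaks inside or within 50 kb, for the 10 genes described, for 5 lists of other pathway genes and for all protein-coding genes, with the number of genes in brackets. The 10 genes include 1 with no peak, while 6 of the 8 TNF receptor genes have none.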

How the data were processed

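RelA ChIP-seq and input libraries numbered 8. Per the labels' protocols, chromatin was fixed with disuccinimidyl glutarate and formaldehyde, so proteins that reach DNA through others can also give peaks. The submitters' processing notes name cutadapt 1.9.1, Bowtie2 2.3, SAMtools, Picard 1.13, deepTools, MACS2 and mm10. The peak threshold, the use of input and whether libraries were pooled are not stated in the labels or the file. The authors deposited 1 list of peak starts and ends in base pairs, with no score. Depth and counting error could not be given.

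BED starts were shifted by 1 base, so that positions count from 1. Genes came from an NCBI RefSeq table of GRCm38.p6 (49209 on chromosomes 1 to 19 and X, scaffolds left out); 6 peaks on contigs were not assigned. Start sites and strands came from the RefSeq promoter table. Counting was tested on 200 genes with 1 simulated peak each, and 0 genes were counted wrongly. Python 3.11.15, pandas 2.3.3 and numpy 2.4.6 were used. The genes, lists and rules were chosen with earlier results of these data known. Named genes were the 10, every coding gene nearer to one of their peaks and the 3 closest genes per list; neighbouring genes in the account of sharing were named after their values were seen. No test between samples was possible, since the list has no sample values, and no test was made on the genes.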

Additional observations from a re-analysis of the deposited data

How the results depend on the processing

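The alternatives were windows of 1, 5, 10 and 100 kb, any overlap in place of the centre, wider peaks only, peaks under 1 kb apart merged, the nearest protein-coding gene only, genes of any kind as neighbours, and 2 other definitions of a peak at the start site. Of 27 values, 24 stayed within 1.5 times the reported one (for the share of shared peaks, within its Wilson 95% interval). A value at exactly 1.5 times counted as within. Such values were 6 genes in place of 9 at 5 kb and 1 kb, and a median of 1.0 in place of 1.5, as at 10 kb. The 3 that moved were the 14 peaks, which became 8 with a 1 kb window, the median of 1.5 peaks per gene, which became 2.5 with a 100 kb window, and the share of peaks with another coding gene in the same window, which fell from 100% to 18.2% (2 of 11 peaks) at 10 kb. In each, the window itself changes what can be counted. The number of genes with a peak was 9 with 100 kb, with any overlap, with the wider peaks and with merged peaks. It was 7 with 10 kb and with the nearest gene only, and 6 with 5 kb or 1 kb. Of all protein-coding genes, 43.2% had a peak with 50 kb, 23.1% with 10 kb and 22.1% with the nearest gene only. That share was not calculated for the other settings, so their counts have no background beside them. No paired analysis was possible because the peak list holds no values per sample, and for the same reason no replicate could be left out. Depth is unknown, so the lack of a peak near a gene such as Xiap does not show that RelA was absent there.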
